A study of Saccharomyces cerevisiae with 8 samples.

Results

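The genes for the subunits of the RNA polymerases were followed in budding yeast cultures given L-carnitine, hydrogen peroxide or both. Probe sets that name 1 Saccharomyces cerevisiae gene were searched for the symbols RPA, RPB, RPC or RPO followed by a number, and for RET1. This gave 32 genes of the 5449 with such a probe set, each read by 1 probe set, and all 32 lay above the floor that left 5324 genes to be tested. By name, 7 are RPA genes, 9 RPB genes and 11 RPC genes, and 5 carry other names (RPO21, RPO26, RPO31, RPO41 and RET1).

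The names do not map one to one onto the enzymes. RPB5, RPB8, RPB10, RPC10 and RPO26 encode subunits that polymerases I, II and III all contain, and RPC40 and RPC19 encode subunits of I and III. RPO21 encodes the largest subunit of polymerase II, and RPO31 and RET1 the largest and second-largest of polymerase III. RPO41 encodes the single-subunit polymerase of mitochondria and belongs to none of the 3 nuclear enzymes, so the label of the set does not hold for it. Sorted by enzyme, 7 genes belong to polymerase I alone, 7 to polymerase II alone, 10 to polymerase III alone, 2 to I and III and 5 to all 3.

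Polymerase I makes the precursor of the large ribosomal RNAs, polymerase II makes messenger RNAs, and polymerase III makes transfer RNAs and the 5S ribosomal RNA. In growing yeast most RNA synthesis is the work of polymerases I and III, and their subunit genes are commonly counted with the ribosome biogenesis genes, whose transcripts fall when growth is checked. Many of these genes carry a promoter element called PAC, named after polymerases A and C, the older names of I and III. The 3 enzymes are built alike: a pair of large catalytic subunits, an assembly pair related to the bacterial alpha subunit, a stalk, a small subunit that helps cleave the transcript, and a shared set.

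All 8 arrays came from cultures of BY4742, a haploid laboratory strain, harvested at mid-log phase in synthetic complete dextrose medium, with 2 biological replicates in each of 4 groups. One group was left untreated, another received carnitine, the next was exposed to 0.4 mM peroxide during 30 min, and the last had carnitine before that exposure. The carnitine dose is stated as 100 mg/L in the study design and as 1000 mg/L in the treatment protocol. Each culture, the controls included, carries the genotype his3 leu2 lys2 ura3 in the labels. The labels also read MATa, whereas the 3 α-cell genes checked (MF(ALPHA)1, MF(ALPHA)2 and STE3) read between 16046 and 51980 and the 5 a-cell genes between 5.48 and 357, so the mating type in the label went against its marker genes. The signals of 3 auxotrophic marker genes (LEU2, LYS2, URA3) were at the floor, from 3.87 to 4.09, whereas HIS3 read 10505 to 17056. The values are linear array intensities as the authors deposited them, and the median signal of an array ran from 3044 to 3198. The 32 genes read between 670 and 32605, all far above the floor of 4.14, and their replicates differed by a median of 0.055 to 0.085 on the log2 scale within a group.

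Changes below are log2 differences ± SE from 1 limma fit over the 8 arrays and all tested genes. A gene rose or fell where the Benjamini-Hochberg adjusted p of that fit was below 0.05. The 2 arrays a group limit the precision. Each limma p-value sets a change only against the spread of replicate cultures, pooled over the 4 groups and moderated over all tested genes. The cultures were measured in bulk, so fewer cells expressing a gene and less of its RNA per cell cannot be told apart. Signals of different genes come from different probes and are not compared as levels.

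Peroxide lowered most polymerase genes, with a smaller median fall for genes of polymerase II alone than for those of I and III. Without carnitine, 28 of the 32 genes fell, 0 rose and 4 did not pass, with a median change of -0.93. Over all tested genes 39.5% fell, 35.3% rose and 74.8% changed in either direction, with a median of -0.025. With carnitine present, on separate arrays, 27 of 32 fell, 0 rose and 5 did not pass, beside 39.1% of all genes that fell, 35.8% that rose and 74.9% in either direction, and the median was -0.88. By name, the median change with peroxide alone was -1.05 for the RPA genes, -0.52 for the RPB genes and -1.16 for the RPC genes. In carnitine-fed cells these medians were -1.17, -0.38 and -1.11.

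The RPB name group mixed genes of unlike behaviour. Its 3 shared subunits (RPB5, RPB8 and RPB10) fell by between 0.52 and 1.15, while of its 6 genes that serve polymerase II alone RPB2, RPB3 and RPB4 did not pass the test and RPB7, RPB9 and RPB11 fell by 0.44, 0.57 and 0.63. The ranges of the shared and the polymerase II genes thus overlapped. Sorted by enzyme, the medians were -1.05 for polymerase I, -1.36 for polymerase III, -0.76 for the pair of I and III, -0.92 for the subunits of all 3 and -0.44 for polymerase II. In carnitine-fed cells the same order of enzymes gave -1.17, -1.13, -0.84, -0.87 and -0.0085. These are medians over genes of the 3 enzymes, which are not replicates, and no test was made on them.

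**Figure D1:**
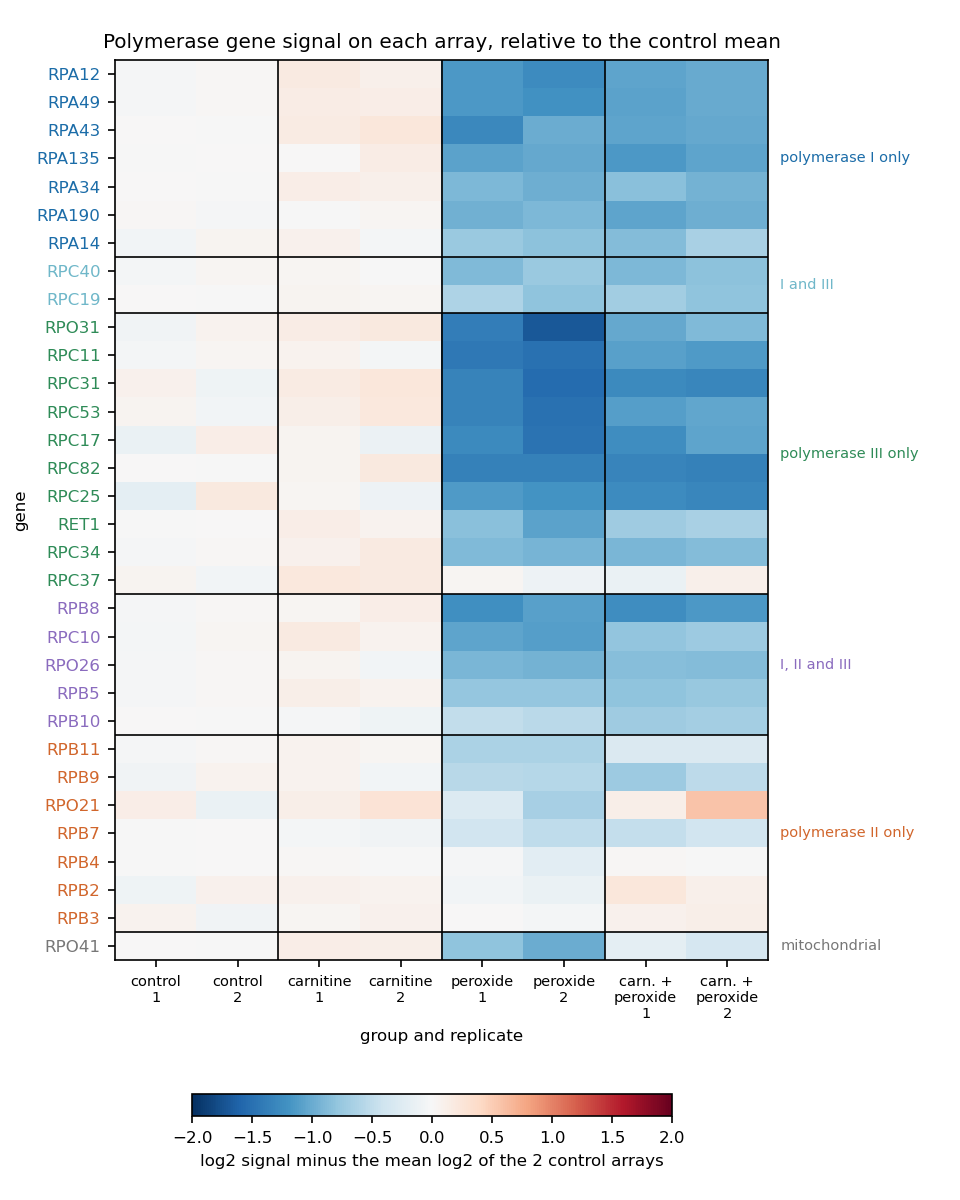
Log2 signal of each of the 32 genes (rows, grouped and coloured by enzyme) on each of the 8 arrays (columns), minus the mean log2 signal of the 2 control arrays; blue is lower and red higher. The rows of polymerase I, of the shared subunits and of polymerase III other than RPC37 are blue on the 4 peroxide arrays, while RPB2, RPB3, RPB4 and RPC37 stay near 0.

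The 7 genes of polymerase I alone all fell, with and without carnitine. RPA135, for the second-largest subunit, read 27386 and 27656 in control, 27574 and 30512 with carnitine, 13102 and 13519 with peroxide, and 12437 and 13318 with both. The peroxide arrays lay at about one level, well below all 4 arrays without peroxide, and the gene fell by 1.05 ± 0.061 (a 2.07-fold lower signal, adjusted p = 4.23e-06). RPA190, for the largest subunit, read 19276 and 18728 in control, 18872 and 19607 with carnitine, 9714 and 10164 with peroxide, and 9126 and 9659 with both. It fell by 0.94 ± 0.052 without carnitine (adjusted p = 3.48e-06) and by 1.03 ± 0.052 with it, and the arrays with and without peroxide did not overlap.

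RPA12, for the small subunit that takes part in transcript cleavage, read 12608 and 13062 in control, 14579 and 13787 with carnitine, 5817 and 5359 with peroxide, and 6158 and 6379 with both. Its 4 peroxide arrays lay far below the others, and it fell by 1.20 ± 0.061. RPA49 and RPA34 encode a pair of subunits that resembles the polymerase II factor TFIIF. RPA49 fell by 1.18 ± 0.050 (adjusted p = 1.06e-06) and RPA34 by 0.94 ± 0.055. RPA43, for the stalk subunit that binds the initiation factor Rrn3, fell by 1.14 ± 0.095, and RPA14, for its stalk partner, by 0.78 ± 0.093, the smallest of the 7. RPA43 (YOR340C) and RPA190 (YOR341W) are neighbours on chromosome XV and the only adjacent pair among the 32.

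The lowest changes among the 32 belonged to polymerase III genes. RPO31, for its largest subunit, read 6588 and 7184 in control, 7666 and 7838 with carnitine, 2637 and 2118 with peroxide, and 3371 and 3741 with both. The peroxide-only arrays were lowest, the arrays with both treatments lay between them and the rest, and no groups with and without peroxide overlapped. The fall without carnitine was 1.54 ± 0.11 (2.91-fold lower, adjusted p = 1.06e-05), and 4.49% of tested genes had a lower change. RPC11, for the subunit that helps cleave the transcript and end transcription, read 11073 and 11806 in control, 11998 and 11097 with carnitine, 4265 and 4049.6 with peroxide, and 5377 and 5208 with both. It fell by 1.46 ± 0.064 without carnitine and by 1.12 ± 0.064 with it (adjusted p = 1.22e-06 and 3.26e-06).

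RPC82, RPC34 and RPC31 encode a trio found in polymerase III alone that serves initiation. RPC82 read 4773 and 4736 in control, 4957 and 5466 with carnitine, 1868 and 1866 with peroxide, and 1901 and 1861 with both. Its 4 peroxide arrays differed little, and it fell by 1.35 ± 0.072 without carnitine and 1.47 ± 0.072 with it. RPC31 fell by 1.44 ± 0.095 and RPC34 by 0.91 ± 0.072 without carnitine, and by 1.49 ± 0.095 and 1.03 ± 0.072 with it. RET1, for the second-largest subunit, fell by 0.95 ± 0.079, RPC17, of the stalk, by 1.38 ± 0.13, and its partner RPC25 by 1.16 ± 0.13.

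RPC37 did not follow the other polymerase III genes. RPC37 and RPC53 encode a pair of subunits bound to each other in the enzyme. RPC53 read 1970.2 and 1813 in control, 2059.7 and 2178 with carnitine, 746 and 670.1 with peroxide, and 878 and 922 with both, and fell by 1.42 ± 0.099 (adjusted p = 9.57e-06). RPC37 read 2211 and 2045 in control, 2456 and 2421 with carnitine, 2194 and 1985 with peroxide, and 1939 and 2282 with both, so that arrays with and without peroxide overlapped. Its change was -0.027 ± 0.10 (95% interval -0.27 to 0.22, adjusted p = 0.832) without carnitine and -0.21 ± 0.10 (95% interval -0.46 to 0.029, adjusted p = 0.0966) with it. The change with carnitine was -0.27 after median centring, a fall that passed (limma adjusted p = 0.0426). It was -0.33 without the second array of both treatments.

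All 5 genes for subunits of the 3 enzymes fell in both comparisons, as did RPC40 and RPC19 of the assembly platform of polymerases I and III. RPB8 read 22370.2 and 22877 in control, 23140.4 and 24678 with carnitine, 9699 and 10685 with peroxide, and 9614 and 10172 with both, with no overlap between arrays with and without peroxide. It fell by 1.15 ± 0.063 (adjusted p = 3.27e-06), the greatest fall among the shared subunits. RPC10, for a small zinc-binding shared subunit, read 16354 and 17392 in control, 19062 and 17700.3 with carnitine, 8133 and 7885 with peroxide, and 9735 and 10206 with both, and fell by 1.07 ± 0.059. RPO26 fell by 0.92 ± 0.049, RPB5 by 0.78 ± 0.044 and RPB10 by 0.52 ± 0.045. RPC40 fell by 0.81 ± 0.064 and RPC19 by 0.71 ± 0.069.

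Among the 7 genes of polymerase II alone, 4 fell without carnitine and 3 with it, beside 39.5% and 39.1% of all tested genes. These counts are not called apart from that background. Of the 7 genes, 3 passed in neither comparison. RPB2, for the second-largest subunit, read 11012 and 12397 in control, 12425 and 12332 with carnitine, 11277 and 10629.9 with peroxide, and 13713 and 12576 with both. The groups overlapped, and the change was -0.094 ± 0.072 (95% interval -0.26 to 0.075, adjusted p = 0.271) without carnitine and 0.085 ± 0.072 with it. RPB3, for the alpha-like assembly subunit, read 9411 and 8523 in control, 9238 and 9518 with carnitine, 9022 and 8678 with peroxide, and 9547 and 9746 with both, all within a narrow band. Its change was -0.017 ± 0.061 (95% interval -0.16 to 0.12, adjusted p = 0.814). For RPB4, of the stalk, it was -0.12 ± 0.068 (95% interval -0.28 to 0.037, adjusted p = 0.140). After median centring RPB4 had -0.17, a fall that passed (limma adjusted p = 0.0419), and without the first peroxide array -0.22.

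RPB11, the assembly partner of RPB3, read 10559.5 and 10981 in control, 11306 and 11089 with carnitine, 6977 and 6916 with peroxide, and 8785 and 8816 with both. The peroxide-only arrays were lowest and the arrays with both treatments next, with no overlap between any peroxide and non-peroxide array, and the fall was 0.63 ± 0.047 without carnitine and 0.35 ± 0.047 with it (adjusted p = 1.25e-05 and 2.78e-04). RPB9, for the cleavage subunit, fell by 0.57 ± 0.087 and 0.64 ± 0.087, and RPB7, of the stalk, by 0.44 ± 0.057 and 0.38 ± 0.057. RPO21, whose product carries the repeated C-terminal tail of polymerase II, had the widest replicate gaps of the 32 in both peroxide groups, 0.38 and 0.45 on the log2 scale. It read 3869.7 and 3204 in control, 3822 and 4257 with carnitine, 2908 and 2230.4 with peroxide, and 3824 and 5209.6 with both. Its change was -0.47 ± 0.18 (adjusted p = 0.0476) without carnitine, a call lost in 10 of the other settings tried, hybridisation spike scaling among them (0.0025, adjusted p = 0.990), and without the second peroxide array it was -0.28 (adjusted p = 0.260). With carnitine it was 0.15 ± 0.18 (adjusted p = 0.493).

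**Figure D2:**
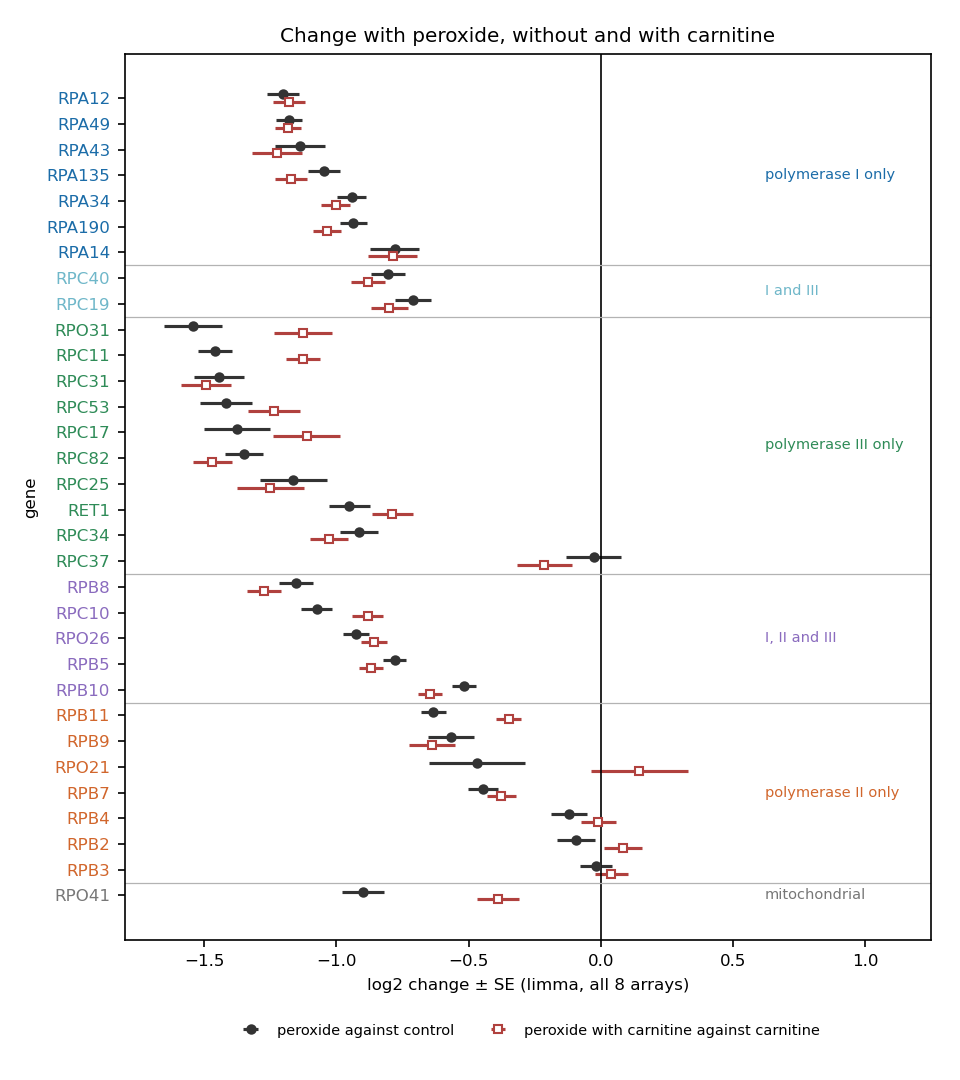
Log2 change ± SE with peroxide for each gene, in cells without carnitine (filled circles) and with carnitine (open squares), from the limma fit; gene names are coloured by enzyme. Polymerase I genes lie between -1.23 and -0.78, polymerase III genes other than RPC37 between -1.54 and -0.79, and polymerase II genes between -0.64 and 0.15.

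Subunits that hold the same place in each enzyme were also set against each other, a comparison added after the signals had been seen. It restates the difference between the enzymes on the same arrays and is not independent evidence of it. For 17 pairs the log2 ratio of both signals was taken within each array, which does not move with the scaling of the array, and the 4 peroxide arrays were compared with the 4 others by a two-sided exact permutation test. The smallest p that 4 against 4 arrays can give is 0.0286, and p-values were adjusted over the 17 pairs. The 12 pairs that passed all had this smallest p and so share 1 adjusted p, 0.0405. That value depends on how many pairs reached the smallest p and does not rank the pairs. Carnitine status was not held fixed in the permutations, and all 12 passes depend on this. Splits made only within carnitine status are fewer. The smallest p they can give lies above the threshold used, so no pair could have passed. Some pairs share a gene, so the pairs are not independent.

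Genes of polymerase I fell relative to their polymerase II counterparts in 6 of 7 pairs, and genes of polymerase III in 5 of 5. The pairs of RPC40 and RPC19, which serve I and III alike, were counted under polymerase I only. The counts therefore do not set polymerase III apart from polymerase I. In the 11 pairs that passed, the difference was below 0 both without carnitine (-1.26 to -0.47) and with it (-1.27 to -0.49). RPA135 over RPB2 went from 1.23 ± 0.091 to 0.13 ± 0.21 (SD, n = 4; exact permutation p = 0.0286, adjusted p = 0.0405), a difference of -0.95 without carnitine and -1.26 with it. RET1 over RPB2 differed by -0.87 and RPO31 over RPO21 by -1.17, each with the same exact permutation p. RPA190 over RPO21 differed by -0.47 without carnitine and -1.18 with it. In the stalk, RPC17 over RPB4 differed by -1.18 and RPA14 over RPB4 by -0.72. For the assembly subunits, RPC40, which serves I and III, fell relative to RPB3 by 0.85. In the pair that did not pass, RPC19 over RPB11, the difference was -0.26 (exact permutation p = 0.114, adjusted p = 0.139), with -0.078 without carnitine and -0.45 with it.

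Between polymerases I and III, 1 of 5 pairs passed. RPA14 over RPC17 rose by 0.46 (exact permutation p = 0.0286, adjusted p = 0.0405), with 0.60 without carnitine and 0.33 with it. The remaining differences ran from -0.24 for RPA135 over RET1 to 0.35 for RPA190 over RPO31.

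**Figure D3:**
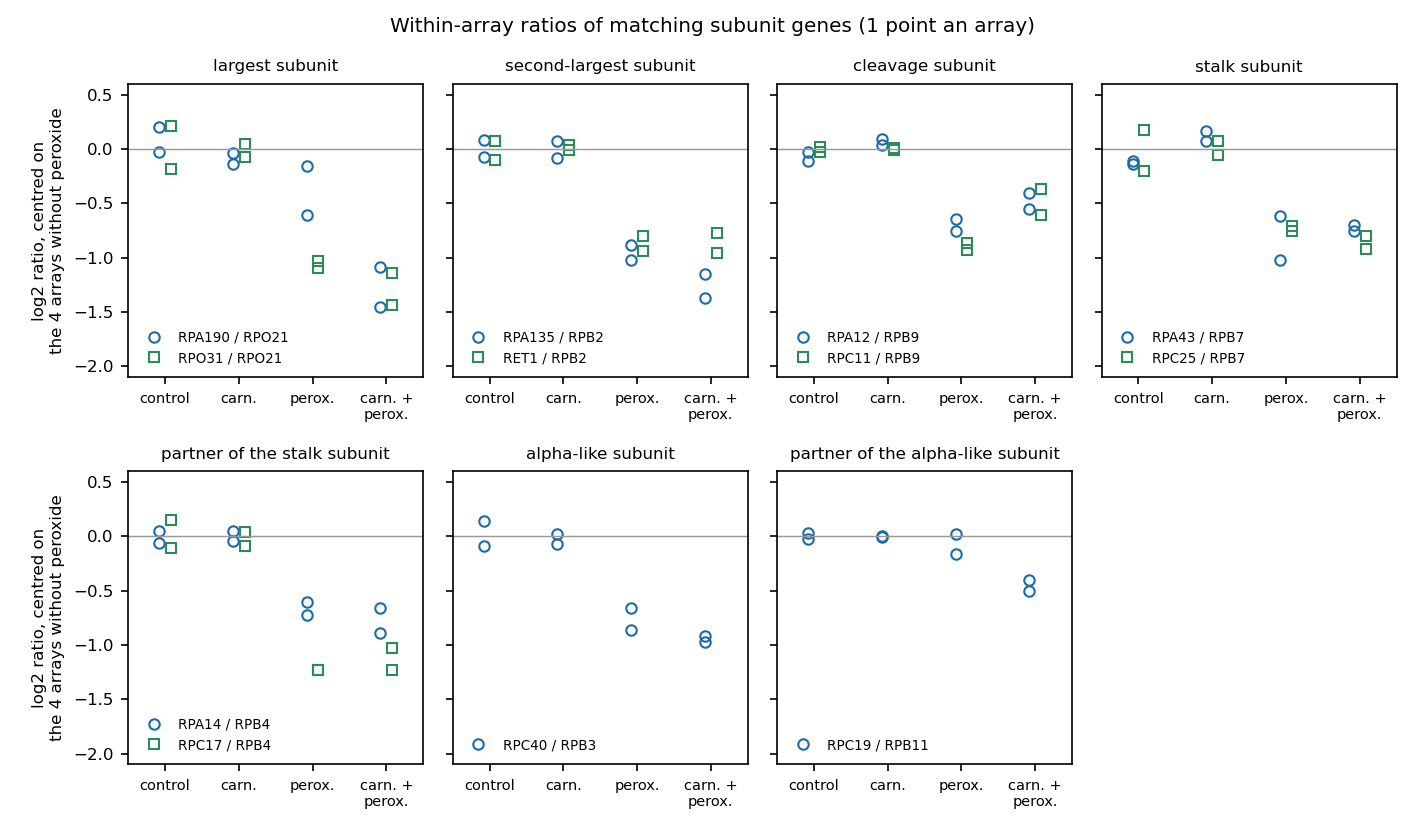
Log2 ratio of the signals of matching subunit genes within each array (1 point an array), centred on the mean of the 4 arrays without peroxide, for polymerase I over II (circles) and III over II (squares); RPC40 and RPC19 serve both I and III. On the peroxide arrays the points lie below 0 except for RPC19 over RPB11, whose peroxide-only arrays lie near 0.

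Carnitine without peroxide, which asks how the supplement acts on unstressed cells, changed none of the 32 genes past the threshold, while 1.5% of all tested genes were called (0.47% higher, 1.03% lower). At an unadjusted p below 0.05, 2 of the 32 did. The share of all tested genes at that threshold was not counted, so this number is not read as a result. The changes ran from -0.058 for RPB7 to 0.20 for RPC31, with a median of 0.081, and 27 of 32 were above 0. Of all tested genes, 2625 of 5324 were above 0, with a median of -0.0011. The genes share the same arrays and are not replicates, and no test was made on these signs. All 7 polymerase I genes had values above 0, from 0.018 for RPA190 to 0.19 for RPA43. For RPA49, RPA12 and RPC31 the 95% intervals, not adjusted for the number of genes, were 0.023 to 0.26, 0.0016 to 0.29 and -0.021 to 0.42. Their limma adjusted p were 0.266, 0.343 and 0.396.

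In peroxide-treated cells, carnitine asks whether the supplement changes the stressed state, and there 9 polymerase genes rose, 1 fell and 22 did not pass. Of all tested genes 35.5% were called, 18.8% higher and 16.7% lower, the background against which 9 of 32 is to be read. The 9 were RPO21 and its polymerase II partners RPB2 and RPB11, the polymerase III genes RPO31, RET1, RPC11 and RPC53, the shared RPC10, and the mitochondrial RPO41. Of the 7 genes of polymerase I alone 0 passed, and their changes ran from -0.082 for RPA190 to 0.17 for RPA12. At an unadjusted p below 0.05 there were 2, again without a count over all tested genes. This comparison shares the peroxide arrays with that of peroxide against control.

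RPO21 rose by 0.81 ± 0.18 (adjusted p = 0.0137), but without the second peroxide array the change was 0.62 (adjusted p = 0.0885) and without the second array of both treatments 0.59 (adjusted p = 0.0676). RPO31 rose by 0.59 ± 0.11 (adjusted p = 0.00756), which left it below its level in every array without peroxide. RPB11 rose by 0.34 ± 0.047 (adjusted p = 0.00336), RPC11 by 0.35 ± 0.064 (adjusted p = 0.00698), and RPC10 by 0.32 ± 0.059 (adjusted p = 0.00714). RPC53, RET1 and RPB2 rose by 0.35 ± 0.099, 0.27 ± 0.079 and 0.26 ± 0.072, with adjusted p of 0.0318, 0.0337 and 0.0282. The shared subunit gene RPB10 fell by 0.18 ± 0.045 (adjusted p = 0.0220). RPB11, RPC10, RPC11, RPO31 and RPO41 passed in all the other settings tried. RET1 missed the threshold in 9 of them, RPB10 in 7 besides its change of sign under poly-A scaling, RPC53 in 5 and RPB2 in 3. RPB2 had 0.20 (adjusted p = 0.152) without the first array of both treatments and 0.22 (adjusted p = 0.145) without the second peroxide array. Leaving out the second peroxide array lowered the number of genes called from 10 to 5, and leaving out either array of both treatments lowered it to 6.

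**Figure D4:**
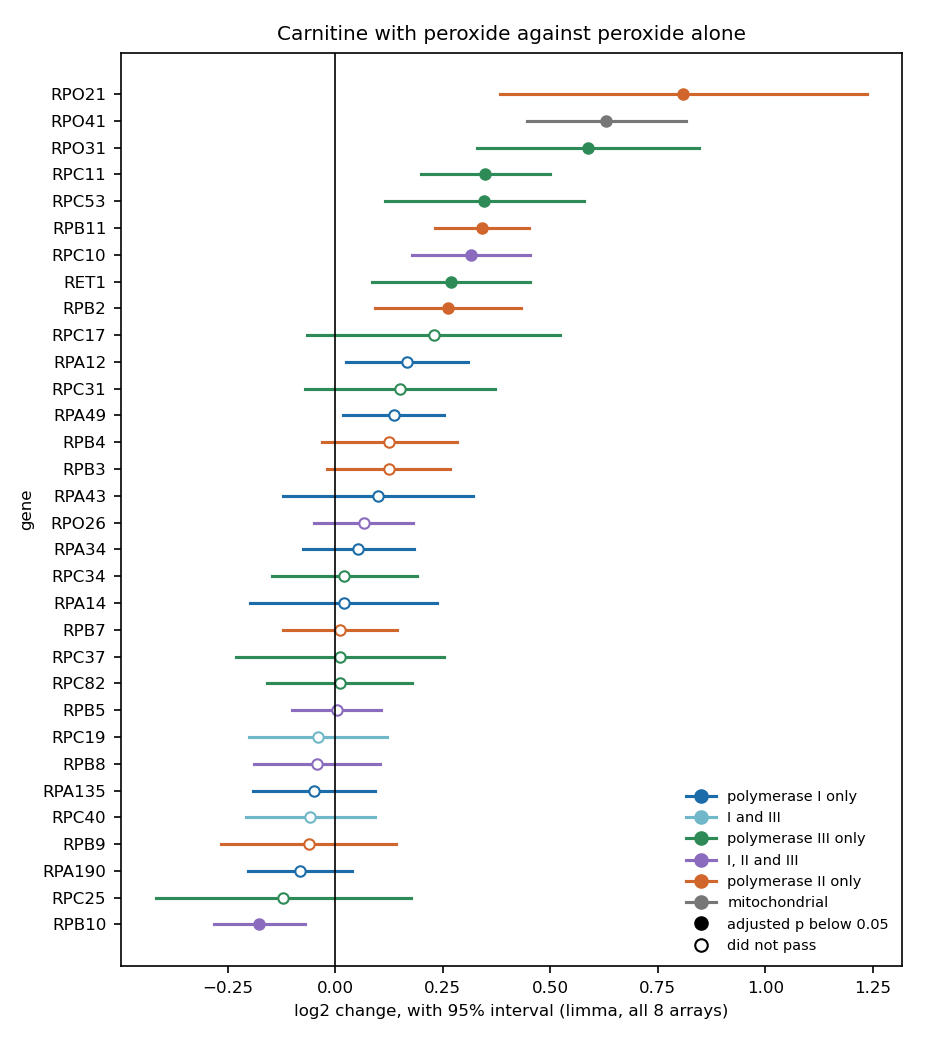
Log2 change between carnitine with peroxide and peroxide alone for each gene, with its 95% interval, ordered by size and coloured by enzyme; filled points passed the test. The 9 genes that rose lie between 0.26 and 0.81 and hold no gene of polymerase I alone, though RPC10 serves all 3 enzymes. RPB10, which fell, lies at -0.18.

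RPO41, for the mitochondrial enzyme, also differed between the peroxide groups. It read 6146 and 6104 in control, 6693 and 6633 with carnitine, 3509.8 and 3077 with peroxide, and 5326 and 4859.6 with both. The peroxide-only arrays were lowest, and the arrays with both treatments lay between these and the arrays without peroxide, with no overlap. It fell by 0.90 ± 0.079 with peroxide alone and by 0.39 ± 0.079 in carnitine-fed cells, and the test of the difference between these, the interaction, gave 0.51 ± 0.11 (adjusted p = 0.0326). MTF1, for the factor that guides this polymerase to mitochondrial promoters, had 0.30 ± 0.095 with peroxide (adjusted p = 0.0209) and -0.065 ± 0.095 with carnitine under peroxide (adjusted p = 0.619). The rise of MTF1 with peroxide did not pass without the first control array or without either peroxide array.

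The interaction passed for 2 of the 32 genes, RPO41 and RPB11, both above 0, beside 12.8% of all tested genes (7.72% above 0 and 5.11% below). For RPB11 it was 0.29 ± 0.067 (adjusted p = 0.0371). RPC11 had 0.34 ± 0.091 (adjusted p = 0.0516), RPO31 0.42 ± 0.16 (adjusted p = 0.117) and RPO21 0.61 ± 0.26 (adjusted p = 0.150). Neither call is firm, since both were lost under hybridisation spike scaling (limma adjusted p = 0.207 for RPO41 and adjusted p = 0.656 for RPB11). Both were also lost in most fits that left out 1 array, where calls over all tested genes became fewer too. Without the second peroxide array the estimates were 0.41 for RPO41 and 0.28 for RPB11, and without the second array of both treatments 0.58 and 0.28.

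Of 9 factors that work with polymerase I, 7 fell with peroxide, 1 rose and 1 did not pass, with a median of -0.81, beside 39.5% of all tested genes that fell and 35.3% that rose. RRN7, for a subunit of the core factor that recruits the enzyme, read 434 and 552 in control, 604 and 674 with carnitine, 96.7 and 63.1 with peroxide, and 221 and 194 with both, and fell by 2.65 ± 0.22 (adjusted p = 2.14e-05). RRN11, of the same factor, fell by 1.12 ± 0.13, RRN9, of the upstream activating factor, by 0.81 ± 0.10, and HMO1, for a protein that coats ribosomal DNA, by 0.52 ± 0.060. With carnitine under peroxide RRN7 and RRN11 rose by 1.41 ± 0.22 and 0.81 ± 0.13, and RRN9 fell by 0.41 ± 0.10. The fall of RRN9 did not pass without either array of both treatments (adjusted p = 0.0721 and adjusted p = 0.0745), without the second peroxide array (-0.30, adjusted p = 0.104), with only the compared arrays (adjusted p = 0.0502) or under hybridisation scaling (adjusted p = 0.124).

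The 10 factors of polymerase III were split: 4 were higher, 3 lower and 3 short of the threshold (median 0.13). These counts, and those of the general and elongation factors of polymerase II that follow, stand beside 35.3% of all tested genes that rose and 39.5% that fell, and no list is called apart from that background. MAF1, for the repressor of polymerase III, read 3118 and 3018 in control, 2834 and 2619 with carnitine, 4641 and 5336 with peroxide, and 4236 and 4480.4 with both, higher on all 4 peroxide arrays, and rose by 0.70 ± 0.087 (adjusted p = 1.87e-04). TFC7, of the promoter-binding factor TFIIIC, rose by 0.65 ± 0.088, while TFC4 of the same factor fell by 0.69 ± 0.091 and PZF1, for the 5S-specific factor TFIIIA, by 0.72 ± 0.092. Of the 19 general factors of polymerase II, 8 rose, 7 fell and 4 did not pass (median 0.10). TFA2, for a TFIIE subunit, and SUA7, for TFIIB, rose by 0.75 ± 0.057 and 0.66 ± 0.054, and RAD3 and TFB1, of TFIIH, fell by 0.84 ± 0.062 and 0.68 ± 0.059. Among 12 elongation genes 7 rose, 3 fell and 2 did not pass (median 0.25), with POB3, of the histone chaperone FACT, and RTF1, of the Paf1 complex, up by 0.45 ± 0.053 and 0.35 ± 0.056 and SPT6 and SPT4 down by 0.48 ± 0.058 and 0.40 ± 0.063.

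Genes for the assembly and nuclear import of the polymerases moved both ways, 3 of the 8 up, 2 down and 3 short of the threshold (median 0.19; 35.3% and 39.5% over all tested genes). IWR1, whose product guides assembled polymerase II into the nucleus, read 2095 and 1807 in control, 1769 and 1694 with carnitine, 6183 and 5604 with peroxide, and 6228 and 6115 with both, and rose by 1.60 ± 0.091 without carnitine and 1.83 ± 0.091 with it (adjusted p = 3.99e-06 and 1.78e-06). RTR1, for a phosphatase of the polymerase II tail, rose by 1.23 ± 0.11, while RTP1 and BUD27, which act in polymerase assembly, fell by 0.998 ± 0.12 and 0.78 ± 0.097.

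Peroxide lowered 5 of 9 regulators of ribosome and polymerase genes and raised 2 (median -0.78), beside 39.5% and 35.3% of all tested genes. FHL1 and IFH1, which together activate ribosomal protein genes, fell by 1.80 ± 0.15 and 1.49 ± 0.12, and SCH9, for a growth-promoting kinase, by 0.82 ± 0.083. TOD6, for a repressor that binds the PAC element, read 3839.7 and 4142 in control, 4101 and 4201 with carnitine, 1689 and 1358 with peroxide, and 2348 and 2134 with both, and fell by 1.40 ± 0.11 (adjusted p = 1.99e-05). With carnitine under peroxide 5 of the 9 rose and 0 fell, beside 18.8% of all tested genes that rose and 16.7% that fell, with SCH9 up by 0.76 ± 0.083, IFH1 by 0.85 ± 0.12, TOD6 by 0.56 ± 0.11 and FHL1 by 0.56 ± 0.15. CRF1, counted among the rises in both comparisons, read only 6.55 to 22.7 on the 8 arrays, near the floor of 4.14. The rise of FHL1 did not pass without the second peroxide array (0.42, adjusted p = 0.159) or without either array of both treatments (adjusted p = 0.0921 and adjusted p = 0.109), and that of TOD6 did not pass without the first array of both treatments (0.49, adjusted p = 0.0622).

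These directions are relative to the overall array signal. Scaling to the poly-A spikes, transcripts added to the RNA, moved every gene by -0.59 for peroxide and by 0.70 for carnitine under peroxide, and scaling to the hybridisation spikes, added with the labelled material, by 0.47 and 0.053. Under both, the genes of polymerase I kept a negative median with peroxide, -1.64 and -0.58, and so did those of polymerase III, -1.95 and -0.89. Polymerase II genes had medians of -1.03 and 0.025, with 7 of 7 that fell under the first and 3 that rose and 0 that fell under the second, so their absolute direction is not set. Of all 32 genes, 32 fell with peroxide under poly-A scaling, against 21 that fell and 4 that rose (RPB2, RPB3, RPB4 and RPC37) under hybridisation scaling. Over all 5324 tested genes, 4302 and 3789 were called in either direction under these scalings. For carnitine under peroxide, 32 of 32 genes rose under poly-A scaling and 6 under hybridisation scaling. Beside these stand 4714 and 1088 of all tested genes called in either direction, so the member counts are not read apart from the shift of every gene. Of the falls with peroxide, those of RPA14, RPB9, RPB10, RPB11, RPC19, RRN9, HMO1, PZF1, TFC4, TFB1, SPT6 and BUD27 kept their sign but did not pass under hybridisation scaling. The rises of MAF1, TFC7, TFA2 and SUA7 with peroxide were 0.11, 0.059, 0.16 and 0.068 under poly-A scaling and did not pass there (MAF1 adjusted p = 0.448). MTF1, POB3 and RTF1, which rose with peroxide, had values of -0.29, -0.14 and -0.24 under poly-A scaling, and SPT4, which fell, had 0.075 under hybridisation scaling. The falls of RPB10 and RRN9 with carnitine under peroxide became 0.52 and 0.29 under poly-A scaling. The within-array ratios between matching subunits are the same under each of these scalings.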

How the data were processed

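The authors deposited linear intensity values, a signal for each probe set on each array. Background correction, probe summary and scaling are steps not given in the sources used here. Per the submitters' processing notes, GCOS was involved. The table held 10928 probe sets, 5498 of them for 1 S. cerevisiae gene and 1746 for fission yeast, and 0 value columns went unused. A platform annotation table gave the gene names, updated through gene identifiers, and the probe set with the highest mean was kept for each gene (49 left out). Genes were tested above a floor of 2.05 (log2), which 95% of fission yeast probe sets do not exceed in the mean. Signals were used as deposited, since array medians of tested genes differed by 5.08%, under the 10% set for centring.

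A linear model on log2 signals used limma 3.58.1 under R 4.3.3 (eBayes after lmFit, trend allowed; a mean for each group, 4 residual and 3.44 prior degrees of freedom). There were 5 comparisons, with Benjamini-Hochberg adjustment over 5324 genes in each. Every one of the 32 members is named. Of each factor list, up to 4 genes with the highest absolute moderated t for peroxide against control are named, and CRF1 is added for its low signal. Members, lists and tests were chosen with earlier results of these data known, and the ratio test of matching pairs was added after the signals were seen. The motif search planned for promoters was not done, and no sequence was used. Alternatives were quantile normalization, median centring, both spike scalings, keeping all genes or those past the 40th percentile, no trend, an offset of 50, only the compared arrays, a replicate block, an adjusted p of 0.10 and leaving out each array. The fit was checked on artificial data with planted changes. Same-numbered replicates did not deviate together (correlations of -0.11 to 0.13), so the numbers were not used as pairs. Figures used matplotlib 3.10.9 in Python 3.11.15.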

Additional observations from a re-analysis of the deposited data

Results flagged for a closer look

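For 2 polymerase genes the peroxide effect differed between cells with and without carnitine by the interaction test. RPO41, for the mitochondrial enzyme, had an interaction of 0.51 on the log2 scale (adjusted p = 0.0326), with a peroxide change of -0.90 without carnitine and -0.39 with it. RPB11, of polymerase II, had 0.29 (adjusted p = 0.0371), with -0.63 and -0.35. Under hybridisation spike scaling neither passed, at adjusted p = 0.207 and adjusted p = 0.656. Groups of 2 arrays were not examined for single outlying arrays.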

How the results depend on the processing

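The numbers of genes called with peroxide, in either direction, were 28, and 27 in carnitine-fed cells, all of them falls. In the settings tried they stayed between 25 and 32, and between 26 and 28. Under hybridisation scaling these numbers include rises. Without carnitine RPB2, RPB3, RPB4 and RPC37 rose there. In carnitine-fed cells 4 polymerase II genes did: RPO21 by 0.51, RPB2 by 0.45, RPB3 by 0.41 and RPB4 by 0.36. With carnitine alone the number was 0 of 32 in every setting. For carnitine under peroxide it was 10, against 6 under hybridisation and 32 under poly-A spike scaling, and 5 to 11 leaving out 1 array. For the interaction it was 2, against 0 and 31 under those scalings, 1 with the filter at the 40th percentile, 1 with no trend, and 0 to 4 leaving out 1 array. Over all genes, the number called for carnitine alone (80) was 41 with no filter, 15 with only the compared arrays, 164 at an adjusted p of 0.10 and 17 to 54 leaving out 1 array. For carnitine under peroxide (1892) it was 1088 and 4714 under the hybridisation and poly-A scalings and 786 to 1763 leaving out 1 array. For the interaction (683) it was 354 and 3935 under these, 449 with no filter, 1249 at 0.10 and 17 to 969 leaving out 1 array. With the 40th percentile filter, which left 3269 genes, 2585 and 2640 were called in the peroxide comparisons (3980 and 3987). A lone array in a group was assumed to vary like the others.

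Median changes with peroxide for RPA, RPB and RPC genes were -0.58, -0.048 and -0.69 under hybridisation scaling and -1.64, -1.11 and -1.75 under poly-A scaling, with -1.10 (RPA) and -0.57 (RPB) after median centring. Sorting by enzyme gave -0.44 in place of the RPB and -1.36 in place of the RPC median. Leaving out 1 array they ran from -1.07 to -0.99 (RPA) and -1.34 to -1.03 (RPC). With carnitine under peroxide they were 0.11 (RPA) and 0.065 (RPB) under hybridisation scaling and 0.75, 0.71 and 0.72 under poly-A scaling, 0.13 and 0.19 by enzyme for polymerases II and III, and leaving out 1 array ran from 0.012 to 0.11 (RPA), -0.021 to 0.069 (RPB) and 0.013 to 0.13 (RPC).

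Of 116 single-gene results, 62 kept direction and side of the threshold throughout. Signs changed as follows, the cause beyond the scaling itself being untested. Hybridisation scaling gave, for peroxide, 0.38 for RPB2, 0.45 for RPB3, 0.35 for RPB4, 0.025 for RPB7, 0.44 for RPC37, 0.0025 for RPO21 and 0.075 for SPT4, and in carnitine-fed cells 0.020 for RPB11, 0.36 for RPB4 and 0.15 for RPC37. Poly-A scaling gave -0.29 for MTF1, -0.14 for POB3 and -0.24 for RTF1 with peroxide, 0.031 for RPB4 in carnitine-fed cells, and 0.52 for RPB10, 0.29 for RRN9, 0.19 for RTR1, 0.49 for TFA2 and 0.49 for TFB1 with carnitine under peroxide. Median centring gave -0.018 for RPB3 in carnitine-fed cells. Leaving out 1 array, values near 0 changed sign: with peroxide RPB3 ran from -0.089 to 0.054 and RPC37 from -0.099 to 0.045, in carnitine-fed cells RPB4 from -0.025 to 0.0079 and RPO21 from -0.077 to 0.37, and the ratio of RPA43 over RPC25 from -0.082 to 0.12, the only one of the 17 ratios to do so.

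With the replicate number as a block 27, 27, 10, 2 and 0 genes were called for peroxide, peroxide in carnitine-fed cells, carnitine under peroxide, the interaction and carnitine alone, and RPO21 with peroxide (-0.47, adjusted p = 0.0607) did not pass; no other member's call changed. Crossing the numbers of the carnitine arrays, chosen after seeing the data since control and carnitine deviations correlated at -0.11, gave 27, 27, 10, 2 and 0. Signal lay far above background for all 32 genes.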
